A study of Mus musculus with 4 samples.

Results

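CD4 T cells without Foxp3 are helper T cells of blood that carry the coreceptor Cd4 and lack a transcript of Foxp3, the lineage factor of regulatory T cells. They were chosen cell by cell from raw UMIs (unique molecular identifiers, each 1 captured transcript). A cell needed at most 10% mitochondrial UMIs, at least 2 UMIs of Cd3e, Cd3d and Cd3g together, at least 1 UMI of Cd4, and none of Cd8b, Foxp3 or Csf1r. It also needed at most 1 UMI of Cd79b, at most 3 of Ccl5 and Nkg7 together, at most 1 of Mki67, Top2a, Birc5 and Cdk1 together, and Lyz2 under 5000 CPM (counts scaled to a common total). Of 48032 cells that passed the mitochondrial limit the rule found 1035, of which 194 were from control blood, 156 from 12 h, 189 from 24 h and 496 from 96 h. These gene values chose the cells and are not results.

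Helper T cells recognise peptides on class II molecules, then divide and instruct other leukocytes through CD40 ligand and cytokines. Naive cells circulate between blood and lymph nodes, which they leave under S1pr1. Memory and effector cells carry adhesion and cytoskeletal proteins such as Itgb1, S100a4 and Ahnak. Glucocorticoids and inflammatory cytokines, both raised in acute pancreatitis, are known to change the traffic and transcription of T cells.

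Mononuclear cells were isolated on Ficoll from blood of wild-type C57BL/6J mice aged 6 to 8 weeks and profiled with a droplet-based 5′ kit. Acute pancreatitis was brought on by 7 intraperitoneal injections of cerulein, a cholecystokinin analogue that overstimulates acinar cells. The series' design text gives a dose of 60 mg/kg. The groups were a control at 0 h and pancreatitis at 12 h, 24 h and 96 h, the last given as 168 h in the design text, with 1 library each and no stated number of animals. No difference between times therefore has a replicate check, and no p-value is given for one. Intervals are 95% and cover counting error only: exact Poisson for levels, exact binomial (Clopper-Pearson) for shares and exact conditional binomial for ratios.

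The members held 1012271 UMIs at 0 h, 879251 at 12 h, 1217445 at 24 h and 2898579 at 96 h, with medians of 4681.5, 5178, 6449 and 5446 UMIs per cell. Gene names in the files are partly those of rat (28 begin with RT1- and 0 with H2-), while the labels give mouse, so names are printed as the files have them. The barcode list of 24 h repeats that of 12 h (11663 barcodes), and the control list holds 4340 barcodes for 14569 cells, so barcodes were not used. A search for cells with identical counts in different libraries found 0 pairs. Scrublet, a doublet caller, marked 0, 0, 0 and 2 members.

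The rule rests on a sparsely detected gene. Exactly 1 Cd4 UMI was present in 179, 140, 174 and 446 members, and at least 2 in 15, 16, 15 and 50. Just outside the rule, 1543, 732, 1224 and 2848 T cells met every other clause and had 0 UMIs of Cd4. The level of Cd40lg, which encodes CD40 ligand and was not part of the rule, was 390, 287, 308 and 440 CPM in members at 0, 12, 24 and 96 h. In the T cells without a UMI of Cd4, Cd8b or Foxp3 it was 368, 292, 272 and 389 CPM. Those cells also held Cd8a at 182, 204, 57.5 and 131 CPM, against 35.6, 10.2, 24.6 and 18.6 CPM in members. The counts of members are thus counts of cells in which Cd4 was detected.

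The markers outside the rule fitted T cells, though Lef1 did not set members apart from the CD8 T cells compared below. Lef1, a transcription factor of naive T cells, stood at 610 CPM at 0 h, 455 at 12 h, 536 at 24 h and 541 at 96 h in members. B cells gated on Cd79b had Lef1 at 22.3 to 30.2 CPM. Markers of other cells were low: Ms4a1 of B cells was at 0, 5.69, 0 and 1.38 CPM, and Fn1 of monocytes at 22.7, 29.6, 34.5 and 23.1 CPM against 835 to 1951 in cells gated on Csf1r.

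The share of CD4 T cells was highest at 96 h. Members made up 1.61% of control cells (1.39 to 1.85), 1.41% of those from 12 h (1.20 to 1.65), 1.66% of those from 24 h (1.44 to 1.91) and 3.66% of those from 96 h (3.35 to 3.99). The ratios to control were 0.88 (0.71 to 1.09), 1.03 (0.84 to 1.27) and 2.28 (1.92 to 2.70). The libraries of 0, 12 and 24 h overlapped in their counting intervals, and the library of 96 h stood above them.

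Detection of Cd4 depends on depth, which was higher at 24 h. With every cell thinned to 2000 UMIs, the shares were 0.920%, 0.695%, 0.638% and 1.62%, and the ratio at 24 h became 0.69 (0.51 to 0.95) while that at 96 h was 1.76 (1.39 to 2.24). Among cells with a CD3 sum of at least 2, members made up 5.08%, 6.19%, 6.94% and 7.74%, with ratios of 1.22 (0.98 to 1.51), 1.37 (1.11 to 1.68) and 1.52 (1.29 to 1.81). Relative to the CD4 and CD8 T cells together they were 18.7%, 19.3%, 24.9% and 24.9%. The share at 96 h lay above control under each of these denominators, while the library of 24 h overlapped it in its interval among CD3-positive cells. The direction at 24 h depended on the denominator and on depth.

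**Figure D1:**
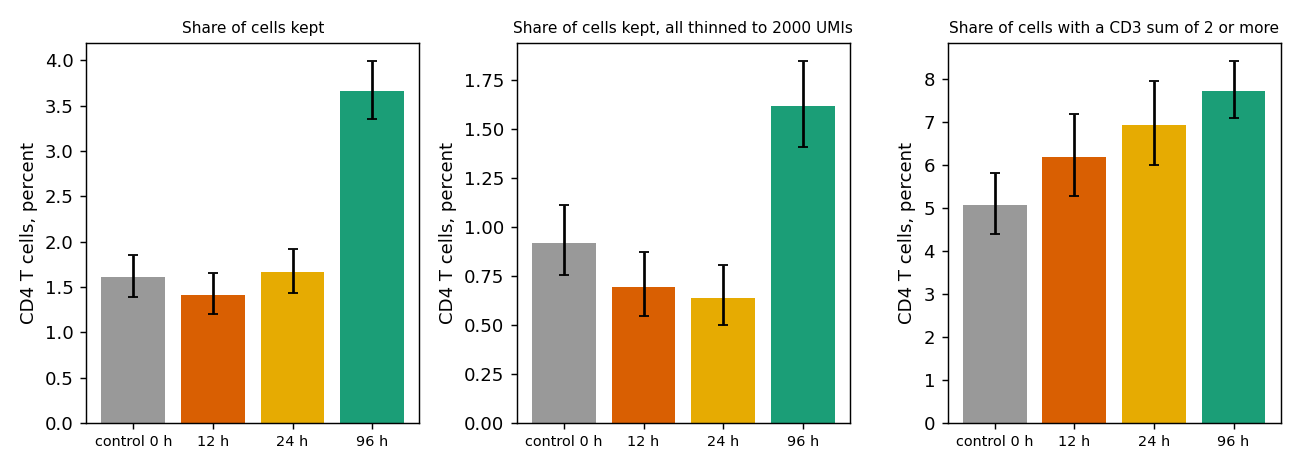
Share of CD4 T cells without Foxp3 per library, in percent, among all cells kept, among all cells after thinning to 2000 UMIs, and among cells with a CD3 sum of at least 2. Bars are the share in 1 library and error bars are 95% binomial intervals; the library of 96 h is the highest in each panel, at 3.66%, 1.62% and 7.74%.

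At 12 h, genes of memory and effector T cells were at higher levels than in control, and most measured genes of the glucocorticoid list at lower levels. The count took in 2217 genes that reached 50 CPM in the control or the 12 h library and had 20 UMIs or more in all. Of these, 34 (1.53%) stood 2-fold or more above control and 19 (0.857%) as far below it. The median log2 ratio over all measured genes was 0.04.

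Batf, a transcription factor of T cell effector differentiation, was at 31.6, 98.9, 83.8 and 44.5 CPM at 0, 12, 24 and 96 h. Its ratio at 12 h was 3.13 (2.07 to 4.85). The integrin subunit Itgb1 was at 136, 336, 91.2 and 175 CPM, a ratio of 2.5 (2.0 to 3.0) at 12 h. For both, the interval of the 12 h level lay above that of the control. Anxa1, a glucocorticoid-regulated anti-inflammatory protein, was at 64.2, 164, 40.2 and 114 CPM, with a ratio of 2.55 (1.89 to 3.47). Its level in members was 33.8% of that in the highest other gated population at 12 h, and 26.6% at 96 h. The part of other cells' RNA in the Anxa1 levels was not tested. Among the other genes named by rule, Orai1, the pore of the store-operated calcium channel, had a ratio of 2.72 (1.68 to 4.53) and Arid5a, an RNA-binding stabiliser of inflammatory transcripts, 2.66 (1.65 to 4.39). Vmp1 stood at 2.33 (1.78 to 3.07) and Olfm1 at 3.7 (2.1 to 7.0).

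The memory and effector list had 9 of 21 measured members at least 1.5-fold higher at 12 h and 0 lower, beside 11.5% and 9.29% of all 5747 measured genes. Its median log2 ratio was 0.55. Lgals3, a galectin, was at 17.8, 77.3, 35.3 and 14.8 CPM, a ratio of 4.35 (2.56 to 7.77). S100a4 was at 336, 886, 233 and 276 CPM, with a ratio of 2.64 (2.32 to 3.01). The 12 h library was the highest of the 4 for each of these genes, and those of 24 and 96 h lay well below it. Neither gene was among the ranked genes at 12 h, which needed a set share of the level in the highest other gate. Cells gated on Csf1r held S100a4 at 4433 CPM at 12 h. In members thinned to a common depth, an S100a4 UMI was present in 23.2% at 0 h (17.5 to 29.8) and 30.1% at 12 h (23.1 to 38.0). Those intervals overlapped. The part of other cells' RNA in both levels was not tested.

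The activation and checkpoint list had 5 of 10 measured members at least 1.5-fold higher at 12 h and 1 lower. Of all measured genes, 11.5% were higher and 9.29% lower. Lag3, an inhibitory receptor for class II molecules, was at 3.95, 29.6, 9.86 and 5.86 CPM, but on 4 UMIs at 0 h and 26 at 12 h in 11 cells. Its ratio of 7.48 has an interval of 2.60 to 29.5. Il2rb, a subunit of the interleukin-2 receptor, stood at 11.9, 46.6, 17.2 and 13.5 CPM. The lower member, Irf8, rested on 1 cell that held 81.0% of its UMIs at 0 h. Capg, an actin-capping protein on the regulatory T cell list, was at 31.6, 106, 30.4 and 58.6 CPM, and 3 of the 4 measured members of that list were at least 1.5-fold higher.

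Lower at 12 h were Jun, an immediate early transcription factor, at 68.2, 9.10, 41.1 and 78.0 CPM with a ratio of 0.13 (0.055 to 0.28), and the nucleoside transporter Slc28a2, at 59.3, 9.10, 14.0 and 52.8 CPM. Txnip, which restrains glucose uptake and marks quiescent cells, was at 2545, 1182, 1468 and 2445 CPM. Its ratios were 0.46 (0.43 to 0.50) at 12 h and 0.58 (0.54 to 0.61) at 24 h. Cxcr4, a chemokine receptor of marrow homing, was at 469, 216, 250 and 487 CPM. Both genes were low at 12 and 24 h and near control at 96 h. Pik3ip1, an inhibitor of phosphoinositide 3-kinase, had a ratio of 0.44 (0.33 to 0.58) at 12 h and Pik3r1, the regulatory subunit of that kinase, 0.45 (0.34 to 0.60). Dnaaf2 stood at 0.20 (0.11 to 0.32) and Vamp2, a vesicle fusion protein, at 0.296 (0.169 to 0.495).

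Of the glucocorticoid list, 6 of 10 measured members were at least 1.5-fold lower at 12 h and 1 higher, and the list's median was -0.77 on the log2 scale. The higher member was Fkbp5, a chaperone induced by glucocorticoid receptors. Over all measured genes, 9.29% were lower and 11.5% higher. In the immediate early list 4 of 13 were lower and 1 higher, with a median of -0.48. In the list of chemokine receptors, egress genes and integrins 1 of 15 was higher and 4 lower, with a median of -0.11. S1pr1, the receptor for egress from lymph nodes and a member of the naive list, was at 476, 284, 338 and 508 CPM, a ratio of 0.60 (0.51 to 0.70) at 12 h, and the survival gene Bcl2 at 210, 113, 180 and 173 CPM.

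Signalling lists moved in part at 12 h. In the NF-kB feedback list 4 of 8 measured members were at least 1.5-fold higher and 1 lower. Nfkb1, the p105 precursor, was at 70.1, 116, 84.6 and 86.6 CPM, a ratio of 1.65 (1.21 to 2.27), and the lower member, the ubiquitin-editing enzyme Tnfaip3, was at 18.8, 3.41, 6.57 and 21.0 CPM. In the list of cytokine receptors and STAT feedback 5 of 14 were higher and 0 lower. Both lists stand beside 11.5% higher and 9.29% lower over all measured genes. Cish and Socs2, feedback inhibitors that STAT5 induces, had ratios of 3.02 (1.66 to 5.76) and 3.91 (1.89 to 8.88), and Stat3 was at 55.3, 102, 93.6 and 72.5 CPM. Both STAT5 targets were highest at 12 h, and each had under 50 CPM in every library.

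Of the naive list 1 of 17 was at least 1.5-fold higher at 12 h and 2 lower, with a median of 0.08. The higher member was Klf2, a factor of T cell quiescence, on 11 UMIs at 0 h and 17 at 12 h. Of the T cell receptor signalling list 0 of 19 were higher and 2 lower. All genes measured at 12 h had shares of 11.5% higher and 9.29% lower. In the respiratory chain list 0 of 16 passed 1.5-fold in either direction at 12, 24 or 96 h. Gimap4, a GTPase of lymphocyte survival, was at 408, 728, 738 and 546 CPM, with ratios of 1.78 (1.57 to 2.02), 1.81 (1.61 to 2.04) and 1.3 (1.2 to 1.5).

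The members' differences at 12 h were set beside those of CD8 T cells, which come from the same libraries and share the control. Itgb1 stood at 2.5 times control in CD4 and 2.32 in CD8 T cells, Txnip at 0.46 and 0.55, Cxcr4 at 0.46 and 0.50, and S1pr1 at 0.60 and 0.54. Orai1 stood at 2.72 in CD4 and 1.05 (0.84 to 1.31) in CD8 T cells, and S100a6 at 3.90 (3.19 to 4.80) and 1.37 (1.20 to 1.57). Anxa1 was the other way round, at 2.55 and 7.07 (5.00 to 10.3). Whether these differ beyond the variation between animals was not tested.

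**Figure D2:**
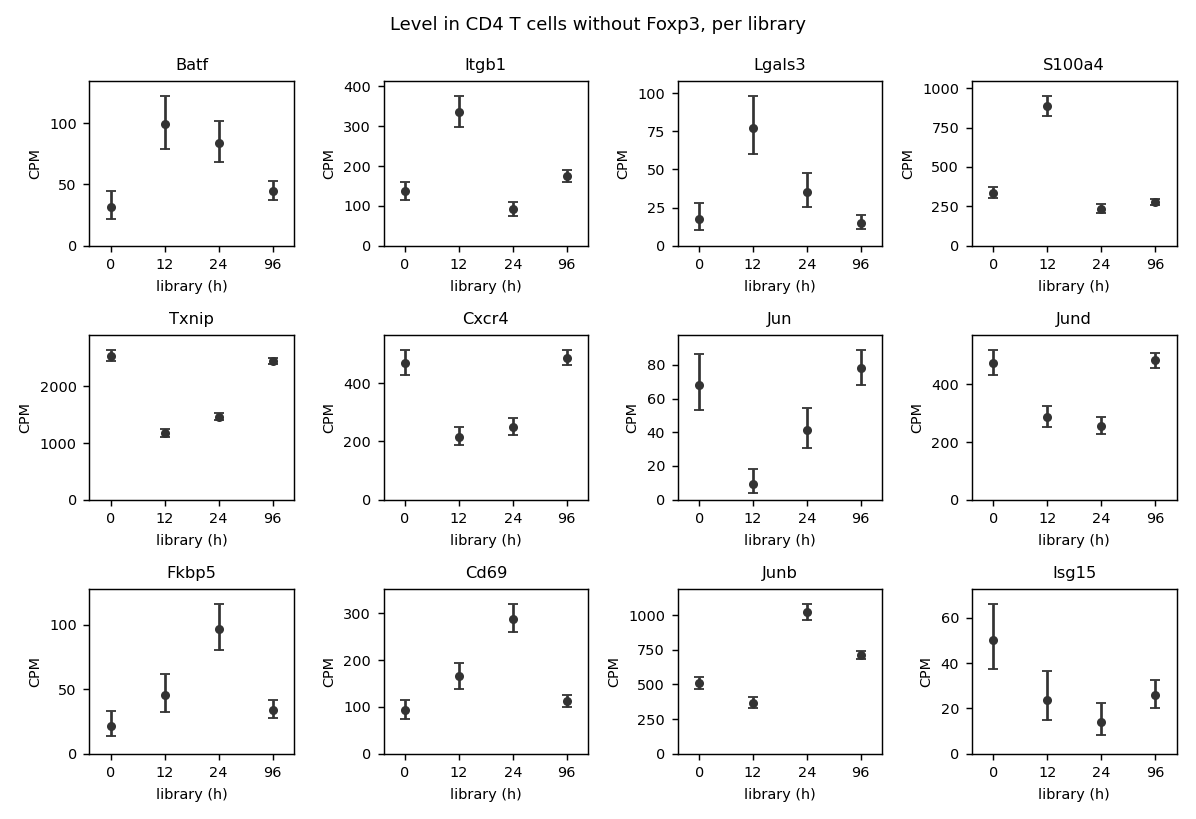
Level of 12 genes in CD4 T cells without Foxp3, in CPM, for the libraries of 0, 12, 24 and 96 h. Points are 1 library and error bars 95% Poisson intervals; Batf, Itgb1, Lgals3 and S100a4 are highest at 12 h, Txnip, Cxcr4 and Jund are low at 12 and 24 h, Jun is lowest at 12 h, Fkbp5, Cd69 and Junb are highest at 24 h, and Isg15 is highest in control.

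The neutrophil genes S100a8 and S100a9 need separate mention. S100a9 was at 1.98, 1649, 260 and 393 CPM in members and S100a8 at 8.89, 2006, 299.8 and 347 CPM. At 12 h B cells had S100a8 at 2978 CPM, NK cells at 2559 CPM and cells gated on Csf1r at 8159 CPM, so the gene was high in every gated population. The whole neutrophil list summed to 14.8, 3754, 593 and 807 CPM in members, with 6, 0, 2 and 1 of its 10 genes at 0. At 96 h, 1 member held 95.9% of the S100a9 UMIs and 94.7% of the S100a8 UMIs. The part of free RNA in these levels was not tested.

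At 24 h, the early activation marker Cd69 and the glucocorticoid-induced chaperone Fkbp5 were at their highest, while several interferon genes were below control. Of 2107 genes, 14 (0.664%) stood 2-fold or more above control and 35 (1.66%) as far below it. The median log2 ratio over all genes was -0.16, and differences at 24 h are read against that value. Median-of-ratios scaling raised each log2 ratio at 24 h by 0.17, and the split became 22 higher and 15 lower.

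Fkbp5 was at 21.7, 45.5, 96.9 and 33.8 CPM, a ratio of 4.46 (2.81 to 7.39) at 24 h. Cd69, which holds lymphocytes in tissue by blocking S1pr1, was at 92.9, 165, 288 and 112 CPM, a ratio of 3.10 (2.47 to 3.94). Each had its highest level at 24 h, with an interval above that of the control. Mt1, a metallothionein that binds zinc, was at 71.1, 131, 217 and 105 CPM. Zfp36, which destabilises cytokine transcripts, was at 74.1, 69.4, 191 and 96.9 CPM. Junb, an AP-1 subunit, was at 511, 366, 1024 and 713 CPM, with a ratio of 2.01 (1.81 to 2.23). The other named genes were Oaf at 4.67 (2.81 to 8.19), Klhdc2 at 3.33 (1.90 to 6.16) and Cpd, a carboxypeptidase, at 3.03 (1.93 to 4.92).

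The immediate early list was divided at 24 h. Of 14 measured members, Fos, Junb, Zfp36, Cd69 and Myc were at least 1.5-fold higher and Jun, Jund, Nr4a1 and Klf6 at least 1.5-fold lower, beside 6.09% and 17.1% of all 5892 measured genes. Jund was at 475, 288, 257 and 483 CPM. A pair of cytokine pathway genes stood out by size, with few UMIs: Il2ra, the high-affinity interleukin-2 receptor chain, at 5.93, 12.5, 28.7 and 11.7 CPM, and Socs3, a feedback inhibitor of STAT3 signalling, at 7.90, 12.5, 31.2 and 15.2 CPM. At 24 h, 5 of 14 members of the list of cytokine receptors and STAT feedback were at least 1.5-fold higher and 2 lower, and 3 of 9 of the NF-kB feedback list were higher and 1 lower. Il7r, the receptor of a T cell survival cytokine, was at 37.5, 44.4, 73.9 and 40.4 CPM.

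Cd69 was also detected in more members at 24 h. After thinning each cell to 1500 UMIs, a Cd69 UMI was present in 13.4% of members at 0 h, 17.3% at 12 h, 37.0% at 24 h (30.1 to 44.3) and 13.7% at 96 h. Unthinned shares were 32.0%, 44.9%, 71.4% and 39.9%. In CD8 T cells the thinned shares were 17.8%, 13.4%, 13.5% and 9.88%, so the 24 h library was not raised there. The ratio of levels was 3.10 in CD4 and 0.855 (0.761 to 0.961) in CD8 T cells.

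Isg15, an interferon-induced ubiquitin-like protein, was at 50.4, 23.9, 14.0 and 25.9 CPM, a ratio of 0.28 (0.15 to 0.49) at 24 h. Of the interferon list, 5 of 11 measured members were at least 1.5-fold lower at 24 h and 1, Ifi27, higher. The control library was the highest of the 4 for Isg15. Tap2, a peptide transporter of class I presentation, was at 49.4, 45.5, 13.1 and 29.0 CPM. Ahnak, a large scaffold protein of memory cells, was at 126, 119, 27.1 and 68.0 CPM, and 4 of 21 memory genes were at least 1.5-fold lower, a share near that of all genes (17.1%), and 2 higher. The median of that list was -0.22 over 21 genes, and 0.12 over the 17 measured in members with no S100a4 UMI. The immediate early list was at -0.26 over 14 genes and at 0.22 over 13. The medians over all members lay near the -0.16 of all genes at 24 h. No median over all genes was taken in members with no S100a4 UMI, so the changes of sign have no baseline. The cause of either was not tested. Gata3, a factor of helper and naive T cells, had a ratio of 0.50 (0.35 to 0.70). Lgals9 stood at 0.34 (0.21 to 0.53), Hist1h1e at 0.29 (0.17 to 0.48), Cnot9 at 0.31 (0.17 to 0.53) and Hypk at 0.48 (0.37 to 0.62).

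In the list of chemokine receptors, egress genes and integrins 0 of 14 measured members were at least 1.5-fold higher at 24 h and 3 lower, a share near that of all genes. Cxcr4 had a ratio of 0.53 (0.46 to 0.62), S1pr1 0.71 (0.62 to 0.81) and Gpr183, an oxysterol receptor that guides lymphocytes, 0.46 (0.29 to 0.71). Of the sterol list 4 of 9 measured members were at least 1.5-fold lower and 1 higher, beside 17.1% and 6.09% of all genes. Only 1 of the 4 lower members had an interval that excluded 1, and that of the higher member included 1. Hk2, a hexokinase, was at 56.3, 92.1, 110.1 and 67.3 CPM, a ratio of 1.95 (1.42 to 2.71). Nfkbia, the NF-kB inhibitor, was at 216, 190, 326 and 186 CPM, and Ddit4, an mTOR inhibitor induced by stress and glucocorticoids, at 108, 61.4, 42.7 and 86.2 CPM. Of the glucocorticoid list 3 of 11 were higher and 5 lower, with Fkbp5 and Ddit4 on opposite sides.

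At 96 h few genes stood 2-fold or more from control. Of 2112 genes, 2 (0.0947%) stood 2-fold or more above control, namely S100a8 and S100a9, and 6 (0.284%) as far below it. Fkbp4, a co-chaperone of steroid receptors, had a ratio of 1.87 (1.43 to 2.49), Capg 1.86 (1.27 to 2.80) and Lsm3 1.82 (1.32 to 2.57). Of the lists, Pim1, a kinase that STAT5 induces, had the ratio 3.84 (1.40 to 14.7), on 4 UMIs at 0 h and 44 at 96 h. Hspa8, a constitutive heat shock protein, was at 603, 1071, 670 and 933 CPM, a ratio of 1.55 (1.42 to 1.69). In the heat shock list 2 of 9 were at least 1.5-fold higher, beside 8% of all 7050 measured genes, and 0 lower, and the list's median was 0.46.

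Among genes lower at 96 h were the ubiquitin ligase Ube3a, with a ratio of 0.39 (0.27 to 0.56), the kinase Stk10 at 0.44 (0.31 to 0.63) and Lbh at 0.47 (0.35 to 0.64). RT1-A1, a class I gene under its rat name, was at 612, 349, 339 and 374 CPM, and RT1-CE4, another, at 393, 694, 431 and 596 CPM. Near-identical class I genes can exchange reads, so these values are uncertain. Ldhb, a lactate dehydrogenase subunit, was at 246, 168, 154 and 141 CPM. Id2, a regulator of effector differentiation, was at 85.0, 105, 100.2 and 29.7 CPM, a ratio of 0.35 (0.26 to 0.48), and stood at 0.46 (0.39 to 0.55) in CD8 T cells. Hif1a, the oxygen-sensing factor, had a ratio of 0.54 (0.42 to 0.70) and Upf2, of nonsense-mediated decay, 0.53 (0.41 to 0.68).

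Some genes of the memory list stood below control at 96 h. In it 4 of 23 measured members were at least 1.5-fold lower, beside 10.6% of all genes, and 1, Anxa1, higher. Lgals1, a galectin, was at 593, 866, 532 and 389 CPM, with a ratio of 0.66 (0.59 to 0.73). Ccr6, a receptor of Th17 and memory cells, was at 48.4, 86.4, 28.7 and 25.9 CPM, with a ratio of 0.54 (0.37 to 0.78). The median of the list was -0.10 over 23 genes, near the -0.06 of all measured genes. It was 0.098 over the 18 measured in members with no S100a4 UMI, where no median over all genes was taken. Ccr9, the gut homing receptor, was at 17.8 CPM at 0 h and 1.38 at 96 h, but in 8 and 3 cells.

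**Figure D3:**
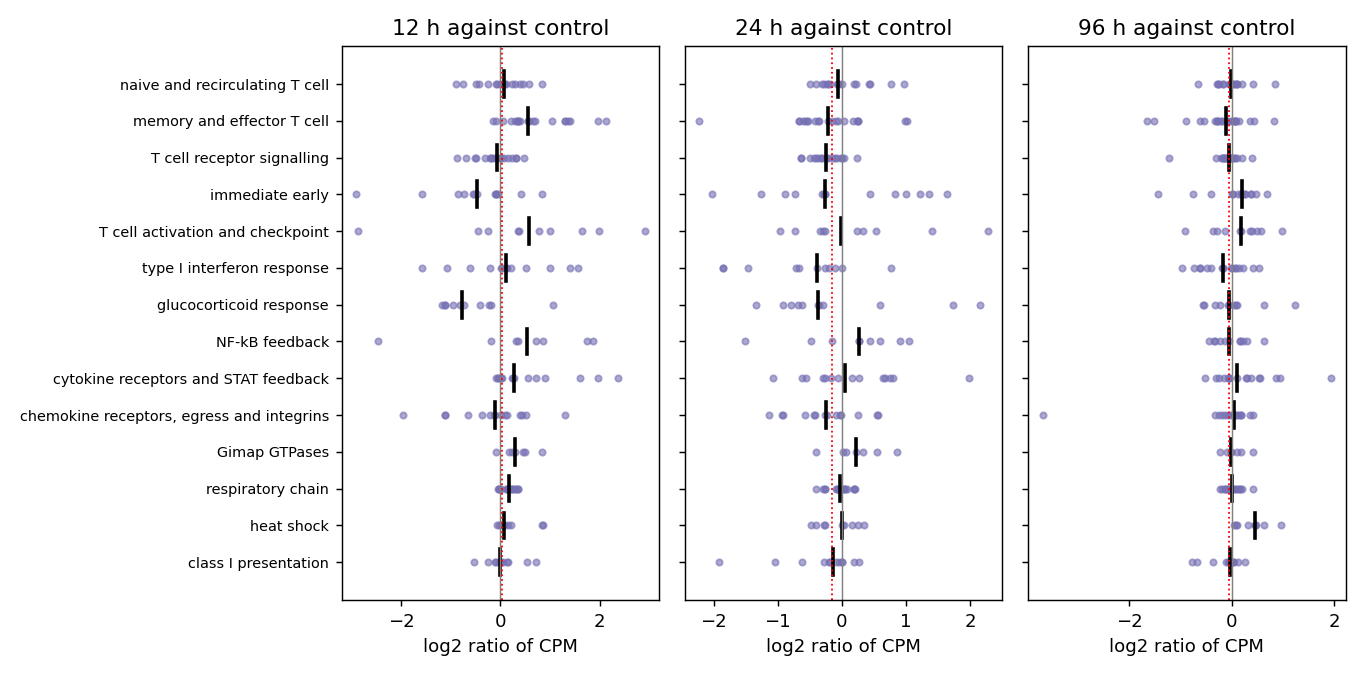
Log2 ratio of CPM against control for the measured members of 14 gene lists at 12, 24 and 96 h in CD4 T cells without Foxp3. Each point is 1 gene, black bars are list medians and the dotted line is the median of all measured genes; at 12 h the memory and effector median is 0.55 and the glucocorticoid median -0.77, and at 96 h the heat shock median is 0.46.

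The members were compared with CD8 T cells chosen by the same rule with Cd8b in place of Cd4 (845, 651, 570 and 1498 cells). Each library gave 1 sum of each population, so the difference was measured in 4 libraries. These are of different times, and the p-values measure the spread of the difference between them. In edgeR's quasi-likelihood test with the library as a block, 652 of 8619 genes (7.56%) were higher and 625 (7.25%) lower in CD4 T cells at an adjusted p under 0.05 (Benjamini-Hochberg). Most genes of the memory and effector list were higher in CD4 T cells, and the cytotoxic genes Ctsw and Gzmm were lower. The rule's limit on Ccl5 and Nkg7 held for both populations, so the CD8 T cells compared here are those with low cytotoxic genes. The part of this choice in the differences was not tested.

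Cd40lg was at 390, 287, 308 and 440 CPM in CD4 T cells and at 36.1, 31.3, 20.4 and 53.2 CPM in CD8 T cells, a log2 fold change of 3.16 ± 0.090 (SE, n = 4 libraries, edgeR adjusted p = 2.3e-19). It was higher in 4 of 4 libraries with no overlap. Itgb1 differed by 1.94 ± 0.084 and S100a4 by 1.85 ± 0.096. Lgmn, a lysosomal endopeptidase, differed by 2.81 ± 0.14 and Anxa1 by 2.3 ± 0.22. Capg, Smpdl3a, Trib2, Paqr5 and Ahnak completed the 10 highest, at 1.70 to 1.96.

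The 10 lowest began with Cd8a, at 10.2 to 35.6 CPM in CD4 and 1217 to 1356 CPM in CD8 T cells, a difference tied to the choice by Cd8b. The cathepsin Ctsw of cytotoxic granules differed by -3.75 ± 0.11 (SE, n = 4 libraries, edgeR adjusted p = 4.6e-19) and the granzyme Gzmm by -3.38 ± 0.13. Lag3 and Il2rb were lower by log2 values of -2.86 and -1.77. Gsto1, Pde6d, Nudt8, Slc25a4 and Cd7 were at -1.38 to -1.59.

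By list, 18 of 24 memory and effector genes were higher and 1, Lgals1, lower, beside 7.56% and 7.25% of all tested genes. Of the immediate early list 9 of 17 were higher and 0 lower, among them Junb at a log2 difference of 1.21. In the activation list 9 of 15 were higher, with Icos, a costimulatory receptor of helper cells, at 1.18 and Ctla4 at 1.28. Of the Th17 list 2 of 4 were higher, Ccr6 by 3.20 and Rora by 4.09, and 1, the aryl hydrocarbon receptor Ahr, lower at -1.91. Of the Th2 list 1 of 2, Gata3, was higher by 1.13, and of the follicular helper list 1 of 4. Of the Th1 list 0 of 6 were higher and 1, Runx3, lower at -0.84. The helper factor Zbtb7b, which directs the CD4 lineage, was detected at a mean of 4.19 CPM in CD4 and 0.414 CPM in CD8 T cells. Lef1 did not pass the test, at -0.15 ± 0.062 with adjusted p = 0.12. Of the naive list 6 of 18 were higher, among them Tcf7, Il7r and S1pr1, and 2, among them Bcl2, lower. All 6 tested genes of the regulatory list, such as Ctla4, Capg and Nt5e, were higher in the CD4 T cells although cells with a Foxp3 UMI had been left out. In the NK and cytotoxic list 4 of 10, Ctsw, Klrd1, Klrk1 and Prf1, were lower and 0 higher. Of 84 ribosomal protein genes, counted after the values were seen, 69 were lower and 2 higher, with a median of -0.33.

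The count was 394 higher and 405 lower without the library of 96 h, 310 and 315 in DESeq2, and 236 and 273 with cells thinned to 1500 UMIs. All 20 named genes passed in the same direction under each of these.

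Foxp3 T cells, the same rule with at least 1 Foxp3 UMI, were few, at 18, 31, 9 and 16 cells, under 50 in every library. In the same test 292 of 5224 genes (5.59%) were higher and 207 (3.96%) lower in the cells without Foxp3. Naive genes were higher: Lef1 by 1.94 ± 0.17, Satb1, a chromatin organiser, by 1.96 ± 0.23 and Bcl2 by 1.84 ± 0.26 (SE, n = 4 libraries, edgeR adjusted p = 3.6e-27, 1.7e-14 and 2.1e-10). Cd40lg was higher by 1.93. Il2ra was lower by a log2 value of -3.40, Capg by -2.75, Il2rb by -2.27 and Tnfrsf4, a costimulatory receptor, by -2.37.

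By list, 7 of 15 naive genes were higher and 0 lower, while 17 of 22 memory and effector genes were lower and 2 higher. Over all tested genes, 5.59% were higher and 3.96% lower. Of the regulatory list 5 of 6 were lower, including Ctla4 at -1.56. Of the NK and cytotoxic list 4 of 8, Tyrobp, Ctsw, Klrd1 and Klrk1, were higher and 0 lower. Of 75 ribosomal protein genes 58 were higher and 1 lower. The part of other cells' RNA in these differences was not tested. S100a9, a neutrophil gene, was among the 10 highest at 1.89 and did not pass in DESeq2. S100a4 was at 461, 1901, 1542 and 1008 CPM in Foxp3 T cells, above the CD4 T cells in 4 of 4 libraries. The lower count was 121 without the library of 12 h, 129 without that of 96 h, and 41 with thinned cells. With thinned cells 14 of the 20 named genes passed, and Tnfrsf4 was not among them.

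The members also varied among themselves. After thinning to 1500 UMIs per cell (1 member of 96 h was shallower and left out), a UMI of S100a4 was present in 45 of 194 members at 0 h (23.2%, 17.5 to 29.8), 47 of 156 at 12 h (30.1%, 23.1 to 38.0), 32 of 189 at 24 h (16.9%, 11.9 to 23.1) and 57 of 495 at 96 h (11.5%, 8.84 to 14.7). Without thinning the shares were 49.5%, 51.9%, 43.9% and 28.4%. The share was highest at 12 h and lowest at 96 h in both. Cells gated on Csf1r held S100a4 at 4305 to 4625 CPM, so its free RNA can reach other cells. In B cells, with median depths of 2762, 2911, 3023.5 and 3281 UMIs, the thinned shares were 20.8%, 17.8%, 20.4% and 9.91%, and in CD8 T cells 12.7%, 13.4%, 13.2% and 6.28%. Only the members' share at 12 h had an interval above the share in B cells, and the share was lowest at 96 h in all 3 populations. The part of free RNA in the marking of cells was not tested.

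Members with an S100a4 UMI carried other memory genes. Levels here are of thinned cells. In edgeR's test with the library as a block, 45 of 1736 genes (2.59%) were higher and 77 (4.44%) lower in them. Ahnak differed by 2.52 ± 0.32, S100a6 by 2.09 ± 0.22 and Itgb1 by 1.92 ± 0.23 (SE, n = 4 libraries, edgeR adjusted p = 1.7e-09, 6.6e-13 and 3.0e-10). The chemokine receptor Ccr6 was at 88.9, 184, 104 and 117 CPM in marked members and 31.3, 12.2, 12.7 and 1.52 CPM in the others, with no overlap. Capg was higher by 2.94, Ramp3, a receptor-modifying protein, by 3.54 and Dap by 3.02. Ramp3 and Dap did not pass without the library of 24 h, nor without that of 96 h. Ramp3 also did not pass without the control library.

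Of the memory and effector list 11 of 16 were higher and 1, Tmsb10, lower, beside 2.59% and 4.44% of all tested genes. Lower in marked members were Lef1, by a log2 value of -0.86 with adjusted p = 0.00018, the phosphodiesterase Pde4d by -1.51 and the costimulatory receptor Cd27 by -0.71. Of the 77 lower genes, 43 were ribosomal protein genes. Without the library of 96 h the counts were 26 and 48, and without that of 12 h the lower count was 46. DESeq2 gave 20 and 40, with 8 of the 20 named genes passing in the same direction. All 10 named lower genes, Pde4d and Cd27 among them, did not pass in DESeq2, and Pde4d and Cd27 did not pass without the library of 96 h either. Splitting by Lgals1 in place of S100a4 gave 23 and 30, again with 8 of the 20, and Ramp3 and Dap were not among them.

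**Figure D4:**
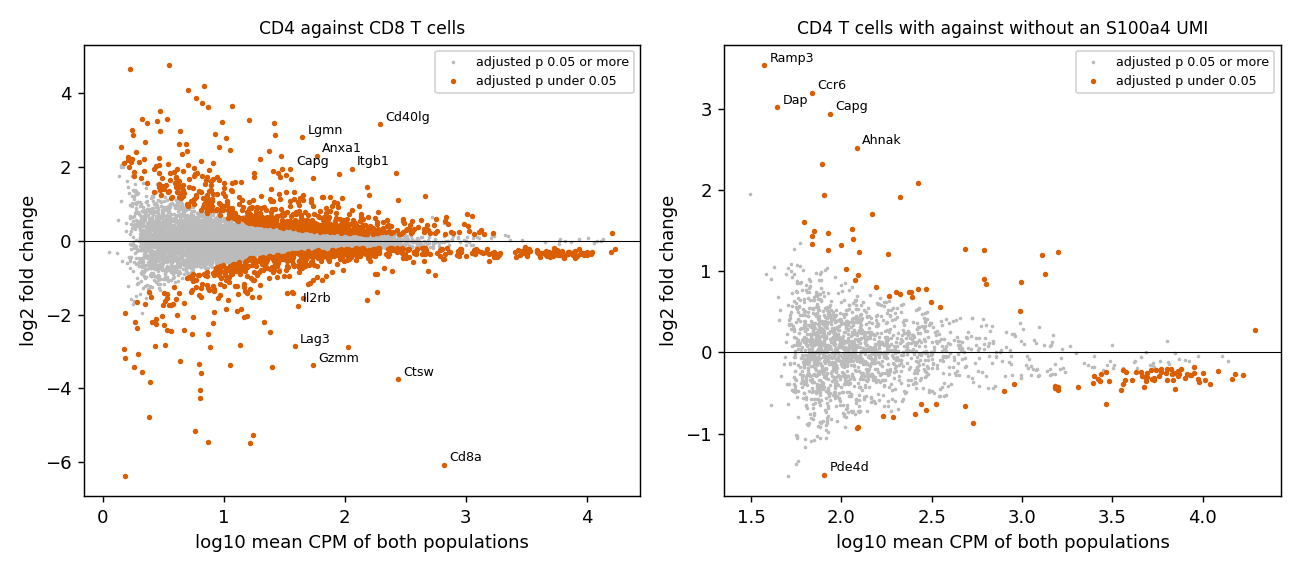
Log2 fold change against the log10 mean CPM for CD4 against CD8 T cells (left) and for CD4 T cells with against without an S100a4 UMI after thinning (right), over 4 libraries. Each point is 1 gene and coloured points passed the edgeR test; Cd40lg is 3.16 higher in CD4 T cells and Ctsw -3.75 lower, and Ahnak is 2.52 higher in marked members.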

How the data were processed

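The authors deposited 1 matrix of raw, unscaled UMI counts for each library, with 16152 gene names. Cell Ranger, Seurat and mm10 are named in the submitters' processing notes, with versions not given in the sources used here. Deposited cells had at least 301 genes and under 15.0% mitochondrial UMIs. The rule was applied to each cell, and the UMIs of members were summed per library and scaled to CPM. The Lyz2 limit was read as a limit per cell. The members and lists were chosen with earlier results of these data known.

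Named genes were, per time, the 8 largest and 8 smallest ratios ranked by the interval bound nearest to 1, given 50 CPM in one library of the pair, 20 UMIs in all and 25% of the level in the highest other gate. For each population comparison they were the 10 highest and 10 lowest log2 fold changes at adjusted p under 0.05 with at least 50 CPM and 1 direction in 4 libraries. From each list they were the extremes. Genes of the rule, ribosomal, mitochondrial, receptor segment and unnamed genes were excepted. Other list members in the text were chosen after their values were seen. Population sums were tested in edgeR 4.0.16 (R 4.3.3), with the library as a block because both sums come from the same library, and in DESeq2 1.42.0. Of 67 genes changed 2-fold in simulated counts, 56 were recovered for CD4 against CD8 T cells (8331 genes), 22 for CD4 against Foxp3 T cells (4861 genes) and 47 for the S100a4 split (1530 genes). The simulated counts had the same mean profile in every library and a fixed dispersion, so they held no differences between times. These recoveries therefore do not measure recovery in the real libraries. Scrublet ran in scanpy 1.11.5.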

Additional observations from a re-analysis of the deposited data

Results flagged for a closer look

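At 24 h, Cd69 was 3.10 times the control level in CD4 T cells and 0.855 times in CD8 T cells (0.761 to 0.961). The ratios lay on opposite sides of 1, but that of CD8 T cells was near it. The median log2 ratio over all genes at 24 h was -0.16 in CD4 T cells, and none was computed for CD8 T cells. A fall of Cd69 in CD8 T cells was thus not established. Isg15 was 0.277 times the control level in CD4 T cells and 1.43 times in CD8 T cells (1.02 to 2.01), again on opposite sides of 1. Each direction rests on 1 library per time, and neither difference was tested.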

How the results depend on the processing

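Of 48 named gene ratios, 10 lay outside the interval of the main ratio with members thinned to 1500 UMIs, and 9 in members with no S100a4 UMI. With at least 2 Cd4 UMIs, 20 lay outside it and 23 inside. Averaging CPM per cell kept the direction of all 48 named gene ratios. Directions were also kept on leaving out doublets or the Lyz2 limit. Doublets took away only 2 members, at 96 h, and the Lyz2 limit only 1 cell, at 12 h. Those settings could hardly change a ratio, so they are no check of the directions. A pair of stricter choices left few cells. At most 5% mitochondrial UMIs left 2, 9, 8 and 39 members, with share ratios of 1.46, 2.05 and 6.97, counts of 44 lower at 12 h, 46 higher at 24 h, and 234 higher and 211 lower at 96 h. Under it 8 ratios turned: at 12 h Batf was 0.39, Cxcr4 2.56 and Pik3ip1 1.18, at 24 h Txnip was 1.06 and Cxcr4 1.92, and at 96 h Hspa8 was 0.55, RT1-CE4 0.56 and Ldhb 1.24. With 2 control cells the control levels are poorly measured, and the cause of the turns was not tested. At least 2 Cd4 UMIs left 15, 16, 15 and 50 members, with share ratios of 1.17 at 12 h and 2.97 at 96 h and counts higher and lower of 91 and 51, 42 and 57, and 148 and 69 at 12, 24 and 96 h.

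Share ratios with cells thinned to 2000 UMIs were 0.69 at 24 h and 1.76 at 96 h, and among cells with a CD3 sum of at least 2 they were 1.22, 1.37 and 1.52. Counts higher and lower at 12, 24 and 96 h were 79 and 42, 42 and 65, and 7 and 18 in members with no S100a4 UMI. They were 122 and 81, 56 and 140, and 42 and 59 with members thinned to 1500 UMIs, and 194 and 145, 110 and 277, and 95 and 153 at a minimum of 10 CPM. Median-of-ratios scaling gave 22 and 15 at 24 h. Without the member with most UMIs of each gene, an alternative added after seeing the data, 1 gene was higher at 96 h, where S100a9 was 16.4 and S100a8 2.64 times control.

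For CD4 against CD8 T cells, leaving out 1 library gave 394 to 566 higher and 405 to 531 lower. DESeq2 gave 310 and 315, thinned cells 236 and 273, and the fit with no replicate block 285 and 226. Against Foxp3 T cells, leaving out 1 library gave 208 to 236 higher and 121 to 185 lower, DESeq2 118 and 117, no filter on low counts 120 lower, no replicate block 154 higher and thinned cells 134 and 41. For S100a4-marked members, leaving out 1 library gave 26 to 49 higher and 46 to 76 lower, DESeq2 20 and 40, no filter 27 and 161, and a split by Lgals1 23 and 30. With no replicate block edgeR gave 22 higher and 0 lower for them, with 103 and 85 at an unadjusted p under 0.05.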
